A study of Mus musculus with 2 samples.

Results

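Integrins are the receptors through which a cell holds on to its matrix, and focal adhesions are the protein assemblies that tie those receptors to actin. The set described here holds 39 genes, namely 20 integrin subunits (13 α chains and 7 β chains) and 19 adaptor genes of the focal adhesion. They were taken by gene symbol, and all 39 are among the 24532 genes of the count table. The cells were cardiac myofibroblasts from hearts of mice labelled C57BL/6 (the methods name C57BL/6J for work on isolated myofibroblasts), taken 3 days after myocardial infarction (MI). Both groups received 12.5 nM siRNA with Lipofectamine RNAiMAX and were harvested 72 h later, siCtrl with a control siRNA and si*Vgll3* with 1 siRNA against *Vgll3*, a transcription cofactor able to bind TEAD factors. Each group has 1 library, so no difference has a replicate check and no test between the conditions was possible. The cells were adherent cells of the infarcted heart left after CD45-positive leukocytes had been removed with magnetic beads.

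An integrin is a pair of an α chain and a β chain, and the α chain largely sets which ligand is bound. The β1 chain pairs with many α chains, whereas αv pairs with several β chains. Inside the cell, talins and kindlins bind the β tail and switch the receptor on. Vinculin, α-actinins, filamin and tensins then couple it to actin, and the kinases FAK and SRC signal from the same site. In fibroblasts these sites sense the stiffness of the matrix, and αv integrins can release active TGF-β from its latent form.

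Values are TPM, the authors' measure of a transcript's level scaled for its length and for the library, so that levels of different genes can be set side by side. M is the log2 ratio of TPM, si*Vgll3* over siCtrl, and A is log2 of the mean TPM of both libraries. Where a pair of values is given for a gene or a list, siCtrl comes first and si*Vgll3* second. A gene was called lower at M < −0.5 and higher at M > 0.5, in each case only at A > 0, which is a mean above 1 TPM. Square brackets after an M hold its 95% interval, taken from the reads by the Clopper-Pearson method and moved onto the TPM ratio. It covers counting error only and compares the libraries, not the conditions. Reads assigned to genes numbered 140815237 for siCtrl and 125789276 for si*Vgll3*. *Vgll3* itself was at 202 and 84.0 TPM, an M of −1.27 [−1.29, −1.24]. All 8 markers of cardiac fibroblasts and myofibroblasts were at A > 0, among them *Acta2*, the smooth muscle actin of myofibroblasts, at 3296 and 3866 TPM, but 5 of the 8, such as *Pdgfrb* at −0.74, had an M below −0.5, as did 11.4% of all genes at A > 0, and *Thy1*, at 134 and 220.4 TPM, had an M of 0.72. *Ptprc*, which encodes CD45, had 0 reads in both libraries. Since these are bulk samples, fewer cells of a type and less RNA per cell cannot be told apart.

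Of the 39 genes, 33 were at A > 0. Among these, 7 were lower in si*Vgll3*, where 11.4% of all 11754 genes at A > 0 were lower, and 1 was higher, where 5.73% of all genes were higher. The whole counting interval lay below −0.5 for 5 members, where 8.31% of all genes did so, and above 0.5 for 1 member, where 3.76% did so. M was below 0 for 20 of the 33, against 57.0% of all genes. The whole interval lay below 0 for 18 of the 33, against 45.8% of all genes, and above 0 for 9 of the 33, against 32.4%. Of the 14 integrin subunits at A > 0, 5 were lower and 1 was higher, and their M had a median of −0.25. Its 95% interval from the order of the values ran from −0.78 to −0.01, and with CPM in place of TPM, which let more low genes pass, the median was −0.08. Such an interval, given in round brackets for other lists, treats the genes as independent, though all come from the same libraries. It holds no variation between replicates and is no test between the conditions. Of the 19 adaptor genes, 2 were lower and 0 were higher, and their median was 0.01 (−0.25 to 0.11). The median over all genes at A > 0 was −0.05. The lower subunits were *Itga11*, *Itga1*, *Itga9*, *Itgb3* and *Itga8*, the higher subunit was *Itga5*, and the lower adaptors were *Tns3* and *Tln2*.

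**Figure D1:**
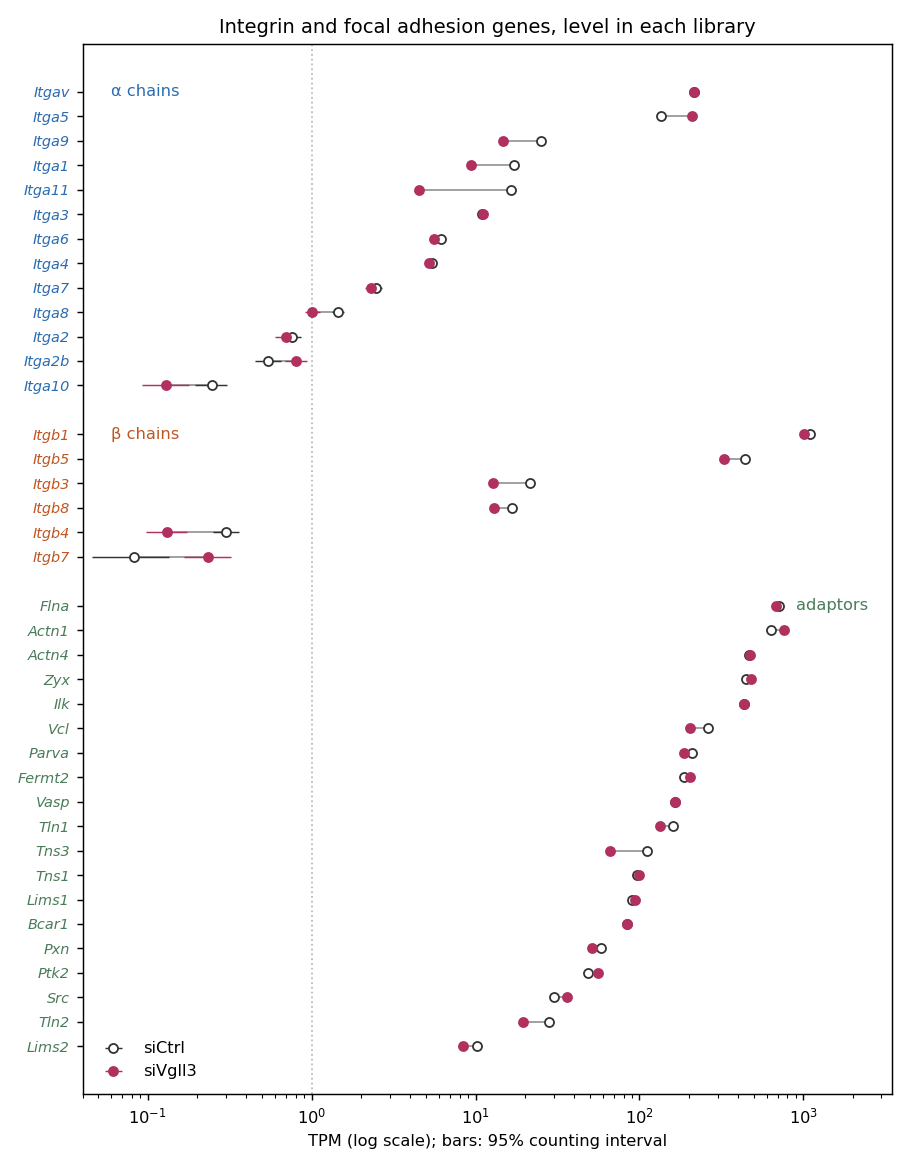
TPM of each gene on a log axis in siCtrl (open circles) and si*Vgll3* (filled circles), 1 library each, with 95% Poisson counting intervals as bars; α chains, β chains and adaptors are ordered by their siCtrl level, and the dotted line marks 1 TPM. *Itga11* has the widest gap among genes above 1 TPM, from 16.4 to 4.50 TPM, while most adaptors sit at nearly the same level in both libraries.

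Both collagen-binding α chains above 1 TPM were lower. *Itga11*, the α11 chain of a fibroblast receptor for fibrillar collagen, is annotated at 62677855 to 62783979 on chromosome 9 (mm10, as for all positions given). Its reads were 5160 for siCtrl against 1313 for si*Vgll3*, which is 16.4 against 4.50 TPM. Its M was −1.86 [−1.95, −1.78], so that 27.5% of the siCtrl level was left. *Itga1*, the α1 chain of another collagen receptor, lies on chromosome 13 from 114958079 to 115101964. Its level was 17.2 TPM for siCtrl against 9.37 TPM for si*Vgll3*, an M of −0.88 [−0.94, −0.82]. The 2 genes were at about the same level in siCtrl, where their Poisson counting intervals overlapped, but in si*Vgll3* *Itga1* was at 2.08 times the level of *Itga11*. The other collagen-binding chains were under 1 TPM in both libraries. *Itga2* was at 0.756 and 0.694 TPM, with an interval of M from −0.42 to 0.18 that holds 0. *Itga10* was at 0.246 and 0.130 TPM, from 80 and 39 reads, and it shares 33.5% of its annotated exonic bases with the predicted gene *Gm42957*, so the source of its reads is uncertain. Summed over the 4 chains, their TPM came to 34.6 and 14.7.

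The RGD-binding α chains, which recognise a short motif in fibronectin, vitronectin and other ligands, went in different directions. *Itga5*, the α5 chain of the main fibronectin receptor, lies on chromosome 15 from 103344286 to 103366791. Its reads were 37923 for siCtrl against 54730 for si*Vgll3*, which is 135 against 210.0 TPM, an M of 0.64 [0.62, 0.66]. It was the only gene of the set called higher. *Itgav*, the αv chain, was at 217 TPM and 215 TPM, an M of −0.01 [−0.03, −0.00], and with CPM its M was 0.04. The level of *Itga5* was thus 0.621 times that of *Itgav* in siCtrl and 0.978 times that of *Itgav* in si*Vgll3*. *Itga8*, the α8 chain that binds nephronectin, was low, at 1.45 TPM and 1.01 TPM from 542 and 350 reads. Its M of −0.52 [−0.72, −0.33] lay so near the threshold that its interval ran across it, and it was at −0.47 with CPM in place of TPM. *Itga2b*, the platelet chain, was under 1 TPM, at 0.543 and 0.804 TPM from 120 and 164 reads.

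The laminin-binding α chains lay between the thresholds throughout. *Itga3* was at 10.9 and 11.2 TPM, an M of 0.04 [−0.03, 0.11]. *Itga6* was at 6.12 and 5.57 TPM, an M of −0.14 [−0.22, −0.05], and *Itga7* at 2.48 and 2.31 TPM, an M of −0.10 [−0.27, 0.07]. For *Itga3* and *Itga7* the interval held 0. The α4 and α9 chains are close relatives without the collagen-binding domain, and they bind ligands such as VCAM1 and tenascin C. *Itga9*, on chromosome 9 from 118606709 to 118901003, was at 25.3 and 14.7 TPM, an M of −0.78 [−0.83, −0.74]. *Itga4* was at 5.44 and 5.24 TPM, an M of −0.06 [−0.13, 0.02], and their intervals did not overlap. *Itga4* shares 8.04% of its exonic bases with *Cerkl* on the opposite strand.

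All 4 β chains at A > 0 had an M whose whole interval lay below 0, as it did for 45.8% of all genes at A > 0, but only *Itgb3* was past the threshold. *Itgb1* encodes the β1 chain, the common partner of the collagen, laminin and α5 receptors, and lies on chromosome 8 from 128685654 to 128733579. It was the most abundant integrin gene, rank 145 by TPM of the 14158 genes with a TPM in siCtrl, with 1101 TPM there against 1004 TPM for si*Vgll3*. Its M was −0.13 [−0.14, −0.13], and −0.08 with CPM in place of TPM. *Itgb5*, an αv partner, was at 441 and 328 TPM, an M of −0.43 [−0.44, −0.41]. *Itgb3*, the β3 chain of the vitronectin receptor, lies on chromosome 11 from 104608000 to 104670476. It was at 21.5 and 12.9 TPM, an M of −0.74 [−0.79, −0.68]. *Itgb8*, which with αv binds latent TGF-β, was at 16.7 and 12.9 TPM, an M of −0.37 [−0.45, −0.29]. *Itgb3* was above *Itgb8* in siCtrl, whereas in si*Vgll3* the counting intervals of their levels overlapped. The β4, β6 and β7 chains, typical of epithelia and leukocytes, were barely detected. *Itgb4* was at 0.302 and 0.132 TPM, from 119 and 48 reads, and *Itgb7* at 0.0820 and 0.234 TPM, from 15 and 38 reads. *Itgb6* had 35 and 38 reads and is not among the genes with a TPM.

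**Figure D2:**
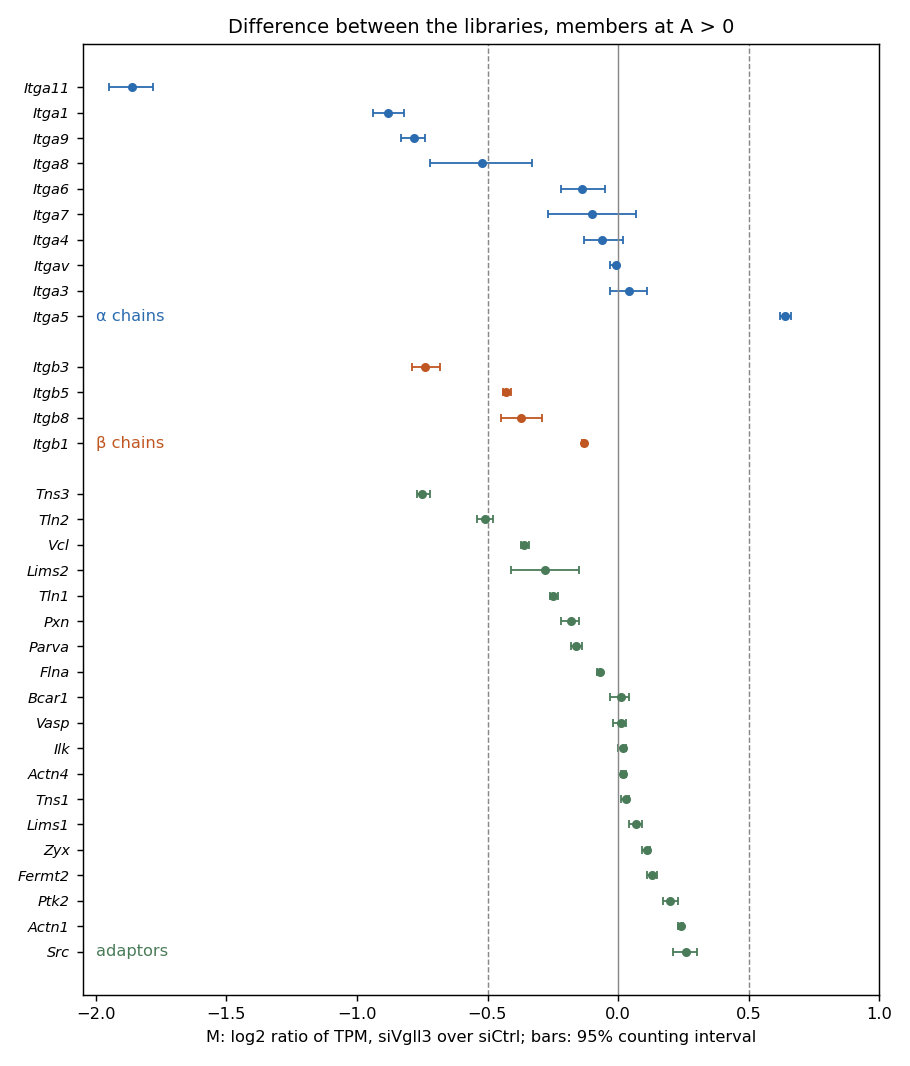
M (log2 ratio of TPM, si*Vgll3* over siCtrl) of the 33 genes at A > 0, with 95% counting intervals as bars; the dashed lines mark −0.5 and 0.5, and colours mark α chains, β chains and adaptors. The α chains run from −1.86 (*Itga11*) to 0.64 (*Itga5*), the β chains from −0.74 to −0.13, and the adaptors from −0.75 (*Tns3*) to 0.26 (*Src*).

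Shares of the summed α chain mRNA are given next. TPM summed over the 13 α chain genes was 438 in siCtrl and 480.2 in si*Vgll3*. *Itgav* held 49.5% of it in siCtrl and 44.7% in si*Vgll3*, and *Itga5* 30.7% and 43.7%. *Itga9* went from 5.76% to 3.05%, *Itga1* from 3.93% to 1.95% and *Itga11* from 3.73% to 0.937%. In order of level, *Itga11* was the fifth α chain in siCtrl and the eighth in si*Vgll3*, while *Itgav*, *Itga5* and *Itga9* held the top 3 places in both. Counting intervals of neighbours in that order overlapped for 1 of 12 pairs in siCtrl (*Itga1* and *Itga11*) and for 3 of 12 in si*Vgll3* (*Itga6* and *Itga4*, *Itga8* and *Itga2b*, *Itga2b* and *Itga2*). The β chains came to a summed 1581 and 1358 TPM, of which *Itgb1* made up 69.7% and 73.9%, and *Itgb5* 27.9% and 24.1%. The 5 lower subunits were all at a mean of 100 TPM or less, where 5 of 10 subunits and 12.3% of all genes were lower. Of the 4 subunits above 100 TPM, 0 were lower, against 6.12% of all genes at such levels, but 4 genes are too few to compare with that share. Of the adaptors, 2 of 9 were lower at 100 TPM or less and 0 of 10 above it. The cut at 100 TPM was not part of the plan.

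**Figure D3:**
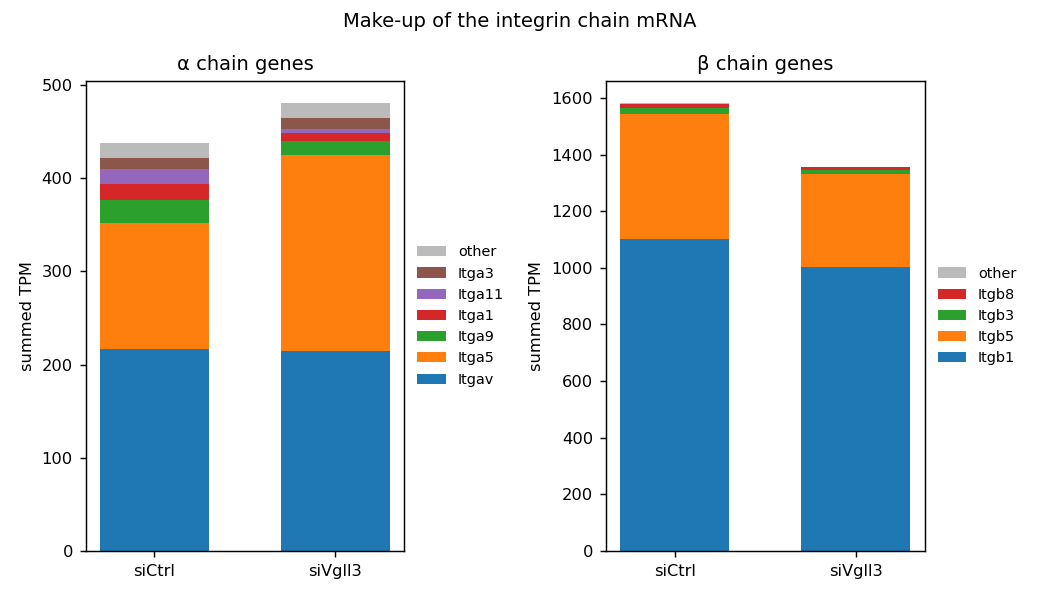
Summed TPM of the α chain genes (left) and of the β chain genes (right) in the siCtrl and si*Vgll3* libraries, stacked by gene, with the remaining genes in grey. The *Itga5* segment is taller in si*Vgll3*, at 210.0 against 135 TPM, and the *Itga9*, *Itga1* and *Itga11* segments are shorter.

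*Tln1* and *Tln2* encode the talins, which link β tails to actin. *Tln1* was at 159 and 134 TPM, an M of −0.25 [−0.26, −0.23]. *Tln2*, on chromosome 9 from 67217085 to 67634045, was at 28.0 and 19.6 TPM, an M of −0.51 [−0.54, −0.48]. It was just past the threshold, its interval ran across it, and with CPM its M was −0.46. *Vcl*, which encodes vinculin, was at 261 and 204 TPM, an M of −0.36 [−0.37, −0.34]. *Fermt2*, the kindlin of fibroblasts, lay on the other side of 0, at 186 and 204 TPM, an M of 0.13 [0.11, 0.15]. *Vcl* shares 25.5% of its exonic bases with *Ap3m1* on the opposite strand, and how strand was used in the counting is not given in the sources used here.

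The genes of the ILK complex, which joins β tails to actin through PINCH and parvin proteins, lay close to 0. *Ilk* was at 433 and 438 TPM, *Lims1* (PINCH1) at 90.2 and 94.5 TPM and *Parva* (α-parvin) at 210.3 and 188 TPM, with M of 0.02, 0.07 and −0.16. The lowly expressed *Lims2* (PINCH2) was at 10.2 and 8.42 TPM, an M of −0.28 [−0.41, −0.15]. The value of *Ilk* is uncertain, as 76.7% of its exonic bases are shared with *Taf10* on the opposite strand, itself at 206 and 184 TPM. The kinases were both slightly above 0. *Ptk2*, which encodes FAK, was at 48.9 and 56.2 TPM, an M of 0.20 [0.17, 0.23], and *Src* at 30.2 and 36.1 TPM, an M of 0.26 [0.21, 0.30]. Of the scaffolds they phosphorylate, *Bcar1* (p130Cas) was at 83.7 and 84.0 TPM and *Pxn* (paxillin) at 58.1 and 51.1 TPM, with M of 0.01 [−0.03, 0.04] and −0.18 [−0.22, −0.15].

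Of the 5 genes that encode α-actinins, filamin A and tensins, 1 was lower. *Tns3*, which encodes tensin 3, lies on chromosome 11 from 8431652 to 8664758. Its reads were 52872 for siCtrl against 29185 for si*Vgll3*, which is 111 against 66.0 TPM, an M of −0.75 [−0.77, −0.72]. Its relative *Tns1* was at 97.0 and 98.8 TPM, an M of 0.03 [0.01, 0.04], so that *Tns1* was at 0.877 times the level of *Tns3* in siCtrl and at 1.50 times that level in si*Vgll3*. *Actn1* (α-actinin 1) was at 639.7 and 758 TPM, an M of 0.24 [0.23, 0.25], and *Actn4* (α-actinin 4) at 466 and 473 TPM, an M of 0.02 [0.01, 0.03]. *Flna* (filamin A), the most abundant adaptor in siCtrl, was at 714 and 678 TPM, an M of −0.07 [−0.08, −0.07], and *Actn1* was the most abundant in si*Vgll3*. *Zyx* (zyxin) was at 446 and 480.2 TPM and *Vasp*, which extends actin filaments, at 165 and 165 TPM, with M of 0.11 [0.09, 0.12] and 0.01 [−0.02, 0.03]. Summed over the 19 adaptors, levels came to 4236 and 4237 TPM. Members of the talin, tensin, α-actinin and PINCH pairs resemble each other in sequence, and how reads that fit both were assigned was not stated.

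Promoters were searched because VGLL3 can bind TEAD factors, which does not say that it acts through them in these cells, and because several adhesion genes are known targets of serum response factor, which binds the CArG box. RefSeq promoter sequences (GRCm38.p6, 250 bases before to 50 after a start site) were found for 30 of the 39 genes, 36 sequences in all. The TEAD motif GGAATG, searched on both strands, occurred in 5 of the 36 (13.9%), in 14.7% of all 32851 promoters and in 12.2% of the 11532 promoters of genes at A > 0. The CArG box occurred in 3 of the 36 (8.33%), in 1.63% of all promoters and in 1.30% of those of genes at A > 0, and its pattern reads alike on both strands. These are descriptions of letters and not of binding, and the motifs did not overlap. The windows below are shown for the genes above 100 TPM that hold a motif, read along the gene's own strand, with the motif in capitals (CATTCC is GGAATG on the other strand).
Itgb1, TEAD motif, chr8:128685637-128685662, plus strand: gcggcgcggaGGAATGcgtttccgga
Vcl, TEAD motif, chr14:20929245-20929270, plus strand: ccctcccttgGGAATGggggcggggc
Flna, TEAD motif, chrX:74246665-74246690, minus strand: cgttgtggggCATTCCaacgggaggg
Actn4, TEAD motif, chr7:28962533-28962558, minus strand: aatgggaacaCATTCCaccccgaaac
Vcl, CArG box, chr14:20929161-20929190, plus strand: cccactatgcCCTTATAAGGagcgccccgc
Fermt2, CArG box, chr14:45530250-45530279, minus strand: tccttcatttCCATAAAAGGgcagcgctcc
Counted from the start site, the motif of *Itgb1* begins at base −7, the CArG box of *Vcl* at −227 and its TEAD motif at −143. *Itga10* (TEAD motif), under 1 TPM, and *Itgb6* (CArG box), without a TPM, were the remaining genes with a match. Of the 7 genes with a motif, *Itga10* and *Itgb6* could not be called, and the others were neither lower nor higher. The windows of 6 called genes, *Itga11*, *Itga1*, *Itga9*, *Itga8*, *Itga5* and *Tns3*, held neither motif, and for *Itgb3* and *Tln2* no promoter was in the table.

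Ligands of these receptors were taken as a list of 27 matrix and cell-surface genes, of which 26 were at A > 0. Of these, 13 were lower and 3 were higher, beside 11.4% and 5.73% of all genes, with a median M of −0.45 (−0.76 to 0.04). *Fn1* (fibronectin), the ligand of α5β1, was the most abundant, at 4977 and 5115 TPM, an M of 0.04 [0.04, 0.04]. *Col1a2* and *Col1a1*, which make the type I collagen bound by α1β1 and α11β1, were at M of −0.53 and −0.90. The lowest was *Edil3*, an αv ligand, at 1.74 and 0.367 TPM, an M of −2.24 [−2.54, −1.95]. Its A was 0.07, and it passed the filter only through its siCtrl level, so its place as the lowest depends on that filter. The highest was *Npnt* (nephronectin), at 2.92 and 9.56 TPM, an M of 1.71 [1.60, 1.82], while the chain that binds it, *Itga8*, was at −0.52. The following ligands were named for their known receptors after their values were seen. Ligands of α9β1 lay on both sides of 0, with *Svep1* at −1.44 [−1.47, −1.41] and *Tnc* (tenascin C) at 0.41 [0.40, 0.43]. So did ligands of αv integrins, with *Postn* (periostin) at −1.22 and *Spp1* (osteopontin) at 1.00 [0.95, 1.05]. Among the laminin chains, bound by α3β1, α6β1 and α7β1, *Lama5*, *Lamb2*, *Lama4* and *Lamc1* were lower, at −1.17, −0.76, −0.69 and −0.69, and *Lama2* and *Lamb1* lay between the thresholds, at −0.38 and −0.32. *Thbs1* (thrombospondin 1) was higher, at 1425 and 2119 TPM, an M of 0.57 [0.57, 0.58]. *Vcam1*, bound by receptors with the α4 or the α9 chain, was lower, at 178 and 122 TPM, an M of −0.54. *Vtn* (vitronectin), the ligand that names the αvβ3 receptor, had 8 and 0 reads. Whether a receptor and its ligand moved together was not tested.

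The other focal adhesion genes mostly lay between the thresholds. Of 47 other focal adhesion genes, 43 were at A > 0, and 3 were lower and 3 were higher, or 6.98% each way beside 11.4% and 5.73% of all genes, with a median M of −0.00 (−0.21 to 0.15). The most abundant were *Csrp1*, *Lasp1* and *Rsu1*, at M of 0.20, 0.16 and 0.05. *Nedd9*, a relative of *Bcar1*, was the lowest, at 78.4 and 30.2 TPM, an M of −1.38, and *Parvb* (β-parvin) the highest, at 6.09 and 14.0 TPM, an M of 1.20. Also past the threshold, and named after their values were seen, were *Ptpn11* at −1.31 and *Tns2* at −0.53, and *Pak1* at 0.68.

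**Figure D4:**
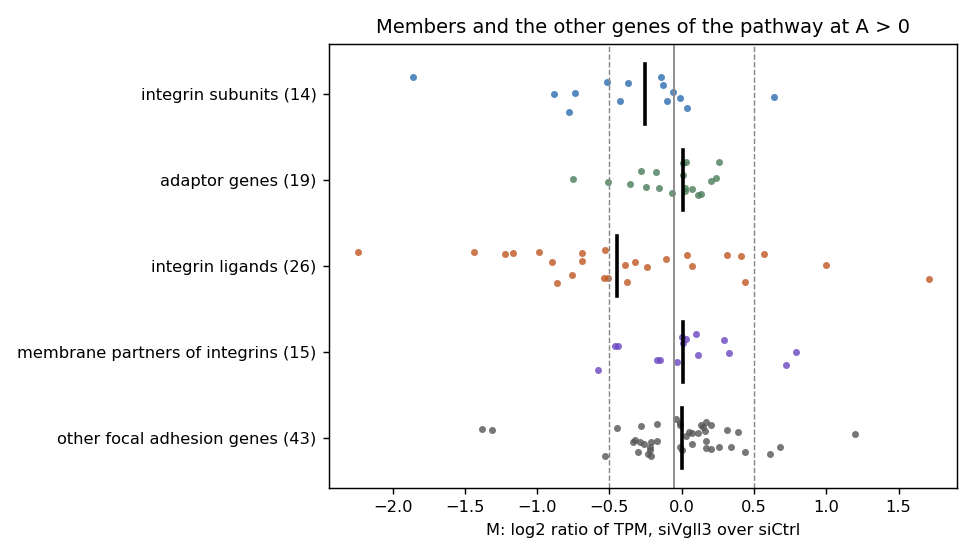
M of each gene at A > 0 (points, jittered vertically) in the integrin subunits, the adaptor genes and 3 lists of related genes, with the number of genes in brackets; black bars are medians, the solid line is the median of all genes (−0.05) and the dashed lines mark −0.5 and 0.5. The medians of the subunits (−0.25) and of their ligands (−0.45) lie to the left, and those of the adaptors and the other lists lie near 0. The intervals of both these medians, −0.78 to −0.01 and −0.76 to 0.04, hold the median of all genes. With CPM the median of the subunits was −0.08.

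Markers of other cells that can express these integrins were mostly at low levels in both libraries. The 6 integrin genes typical of leukocytes summed to 96 reads in siCtrl and 97 in si*Vgll3*, with *Itgam* and *Itgax* at 0 reads in both, which allows up to 3 reads. Of 8 leukocyte markers 5 were at A > 0, and all 8 summed to 15.7 and 14.4 TPM, with *Lyz2* at 10.9 and 3.13 TPM and *Cd53* at 0.760 and 5.91 TPM. The 6 endothelial markers summed to 7.72 and 9.43 TPM. The 5 platelet markers, *Itga2b* among them, summed to 21.1 and 24.3 TPM, mostly *Pf4* at 14.4 and 17.5 TPM. Of 6 cardiomyocyte markers, 5, including *Myh6* and *Ryr2*, had 0 reads in both libraries, while *Tnnt2* had 4574 and 733 reads. *Tnnt2* was at 60.05 and 10.41 TPM, an M of −2.53 [−2.64, −2.42], and these levels are also the cardiomyocyte sum. Its siCtrl level was the highest among these markers of other cells. The 6 pericyte and smooth muscle markers summed to 16.2 and 9.51 TPM, mostly *Notch3* at 14.1 and 7.97 TPM, and the 5 mesothelial and epithelial markers to 40.8 and 20.6 TPM, with *Upk3b* at 31.6 and 9.89 TPM and *Wt1* at 7.61 and 4.78 TPM, but *Msln* at 1.58 and 5.93 TPM. The 3 Schwann cell markers had 19 and 49 reads. The cardiomyocyte sum thus rested on *Tnnt2*, and the pericyte and platelet sums mainly on *Notch3* and *Pf4*. Leukocyte, platelet and mesothelial markers lay on both sides of an M of 0. The part of these markers in the values of the integrin genes was not tested.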

How the data were processed

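RNA sequencing of mouse cardiac myofibroblasts, 1 library each of siCtrl and si*Vgll3*, was analysed from deposited gene tables. The authors made TruSeq Stranded mRNA libraries, sequenced and checked reads with FastQC, removed adapters, low-quality bases and reads under 36 bp with Trimmomatic, aligned the rest to mm10 by HISAT2 and ran StringTie to assemble known transcripts, from which counts and TPM were made. Versions, annotation and strand setting are not given in the sources used here. The authors deposited raw read counts per gene, not normalised, and TPM, scaled for transcript length and library before deposit. Depth was 140815237 and 125789276 reads.

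M, A and counting intervals were computed with Python 3.11.15 and SciPy 1.17.1 on all genes, nothing added before the logarithm. Only the interval of the count ratio was checked on simulated data, which were Poisson counts without variation between replicates. Depth limits precision to the printed intervals, which leave out the choice of scaling. With 1 library per group no replicate test was possible, so edgeR 4.0.16 and DESeq2 1.42.0 served for scaling only. Members and lists were chosen with earlier results of these data known. Every member was named or counted. From each pathway list the 3 genes with the highest mean TPM and those with the lowest and highest M were named. A list of related genes and 1 gene of another list are not reported here. Positions came from RefSeq (GRCm38.p6, the mm10 assembly) and exon overlaps from GENCODE vM21. A planned search of integrin protein tails was not run, since protein sequences were not used here. Alternatives were CPM, TMM, DESeq2 size factors, 0.1 or 1 TPM added, another A, stricter or no filters, centred M, other thresholds and thinned counts.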

Additional observations from a re-analysis of the deposited data

How the results depend on the processing

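No paired analysis was possible because siCtrl and si*Vgll3* hold a single library each, and for the same reason no library could be left out in turn. Under 13 alternatives, the number of lower members stayed between 5 and 9, except with a threshold of 1 on M, which left 1 (*Itga11*). Between 31 and 38 members passed the filter in use. Apart from the threshold of 1, the share of all genes that were lower ran from 8.19% to 14.9%. With a threshold of 1, 1 of 33 members was lower, beside 3.27% of all genes. The number of higher members was 2 with CPM, TMM scaling or DESeq2 size factors, where *Itga2b* passed the filter as well, 3 without a filter on A, which adds *Itga2b* and *Itgb7*, and 0 with a threshold of 1. Of all genes, 6.36% were higher with CPM, 10.1% without a filter on A and 1.76% with a threshold of 1. *Itga11*, *Itga1*, *Itga9*, *Itgb3* and *Tns3* were lower and *Itga5* higher in each of the 11 alternatives that kept the threshold of 0.5 and in the one that asked for the whole interval beyond it. *Itga8* was lower in 4 of the 10 alternatives of the first kind that gave it a value, and *Tln2* in 6 of 11. The median M of the subunits ranged from −0.28 to −0.08 and that of the adaptors from −0.00 to 0.06. Over all genes, 1341 lower and 674 higher became 2103 and 1428 without the filter on A, and 384 and 207 with a threshold of 1, and the higher genes became 393 at A above 2 and 442 where the whole interval had to pass. No called value changed sign, but 87 of 361 values of M under the 11 alternatives fell outside the gene's printed interval. With CPM, *Actn1* was at 0.30, against 0.24 [0.23, 0.25] with TPM, and *Flna* at −0.02, against −0.07 [−0.08, −0.07]. For abundant genes the choice of scaling can thus shift M by more than the interval shows. Depth limits mainly the members under 1 TPM, such as *Itgb7* with 15 reads in siCtrl.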

Other observations

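Membrane proteins that associate with integrins, a list of 15 genes all at A > 0, had a median M of 0.01 (−0.17 to 0.29), with 1 lower and 2 higher, beside 11.4% and 5.73% of all genes. The tetraspanins *Cd63*, *Cd81* and *Cd151*, which bind integrins laterally, were the most abundant, at 1741, 738 and 425 TPM in siCtrl and 1564, 721 and 522 TPM in si*Vgll3*. *Sdc3* (syndecan 3) was the lowest, at 261 and 175 TPM, an M of −0.58. *Plaur*, the urokinase receptor, was the highest, at 34.6 and 59.8 TPM, an M of 0.79. *Thy1*, an integrin ligand on fibroblasts that was named after its value was seen, was at 134 and 220.4 TPM, an M of 0.72. The collagen receptors outside the integrin family, *Ddr1* and *Ddr2*, also named after their values were seen, were at M of 0.00 and 0.11.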
